A study of Bos taurus with 10 samples.

Results

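The proteasome genes of the cow were followed in liver RNA of Holstein dairy cows given conjugated linoleic acid (CLA), a fatty acid supplement made of isomers of linoleic acid. The set held every gene whose single symbol in the array's annotation began with PSMA, PSMB, PSMC, PSMD, PSME, PSMF or PSMG, with the probe set of highest mean over the 10 arrays standing for each gene. It came to 40 genes, read by 46 probe sets, of 9155 genes named on the array, and 6 of the genes had a second probe set. Of the 40, 39 encode proteasome subunits, activators, the inhibitor or assembly chaperones, and PSME3IP1 encodes a protein that binds an activator and is not itself a subunit. Another 10 protein-coding genes with these prefixes in the RefSeq gene table (PSMA2, PSMA8, PSMB11, PSMC3IP, PSMD3, PSMD7, PSMD8, PSMD12, PSME3 and PSMG4) were not named by a probe set here and were not analysed.

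Of 40 female cows, 20 received a control fat and 20 a fat with CLA, both rumen-protected, beginning in week 3 prepartum and ending in week 14 postpartum. The daily concentrate supplement of 630 g dry matter contained 27.3% of the fat. Liver biopsies of week 5 of lactation were combined as RNA of 4 cows per pool, with 5 control pools and 5 CLA pools and 1 array for each pool. Spread between arrays is therefore spread between pools of 4 cows, and no value belongs to a single animal. A liver biopsy holds hepatocytes, endothelium, Kupffer cells and lymphocytes, so less RNA per cell and fewer cells of a type cannot be told apart.

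The proteasome is the barrel-shaped protease that degrades proteins tagged with ubiquitin. Its 20S core has outer rings of alpha subunits (PSMA genes) and inner rings of beta subunits (PSMB genes), of which PSMB5, PSMB6 and PSMB7 carry the protease sites. The 19S cap, made of ATPases (PSMC genes) and non-ATPase subunits (PSMD genes), recognizes, unfolds and feeds substrates into the core. Interferon gamma induces the catalytic subunits PSMB8, PSMB9 and PSMB10, which take the places of PSMB5, PSMB6 and PSMB7 in newly built cores. The resulting immunoproteasome cuts proteins into peptides suited to major histocompatibility complex (MHC) class I molecules. It is abundant in leukocytes and inducible in hepatocytes.

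All values are log2 expression values, and a difference is the mean of the CLA pools minus that of the control pools, so -1 would be a halving. Array medians lay between 5.79 and 5.82 in the CLA pools and between 5.83 and 5.85 in the control pools, without overlap. CLA pool 2 and control pool 4 had the lowest correlation with the other arrays. The log2 difference between 3' and 5' probe sets, a measure of RNA integrity, was 1.71 to 2.71 for GAPDH in control pools and 2.17 to 2.65 in CLA pools, and 1.53 to 2.77 and 1.26 to 2.48 for actin. Probe sets of different genes bind with different strength, so their levels are not compared with each other.

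Most proteasome genes lay close to each other in the 2 feeding groups. The interferon-inducible catalytic subunits were at the low end of the differences and the ATPases PSMC6 and PSMC2 at the high end. At their second probe sets PSMC6 and PSMC2 differed by 0.15 and -0.064, with overlapping groups. Of the 40 genes 21 were higher and 19 lower in the CLA pools (median difference 0.010). This split moved with the scaling of the arrays: 15 genes were higher with quantile normalization (median -0.024), 17 with cyclic loess (-0.020) and 29 with array medians subtracted (0.041). Over all 9155 genes 46.0% were higher and 53.2% lower (median -0.010). For 32 of the 40 genes the difference was smaller than 0.15 in either direction.

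No proteasome gene passed limma's test with Benjamini-Hochberg adjustment over all 24016 probe sets. The lowest adjusted p among the 40 was 0.299, for PSMC6, and 0 probe sets on the whole array passed (0% called). At an unadjusted p under 0.05, 2 of the 40 genes were counted, PSMC6 and PSMC2, both higher in the CLA pools. Among all genes 8.50% reached that level (8.89% of all probe sets), 4.35% of all genes as higher and 4.15% as lower. A count of 2 in 40 is near these shares, and it was 2 to 5 over 19 fits. Over all probe sets 962 were higher and 1173 lower at that level, against 1100 and 817 with quantile normalization, 1196 and 779 with cyclic loess and 1474 and 627 with array medians subtracted. At the brightest probe set per gene, the CLA and control pools did not overlap for the same 2 genes. Among all genes this held for 2.17% in either direction, 1.47% with the CLA pools higher and 0.699% with them lower. Over the 38 other genes the 95% confidence intervals of the difference reached from -0.61 to 0.52 at their outer ends.

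**Figure D1:**
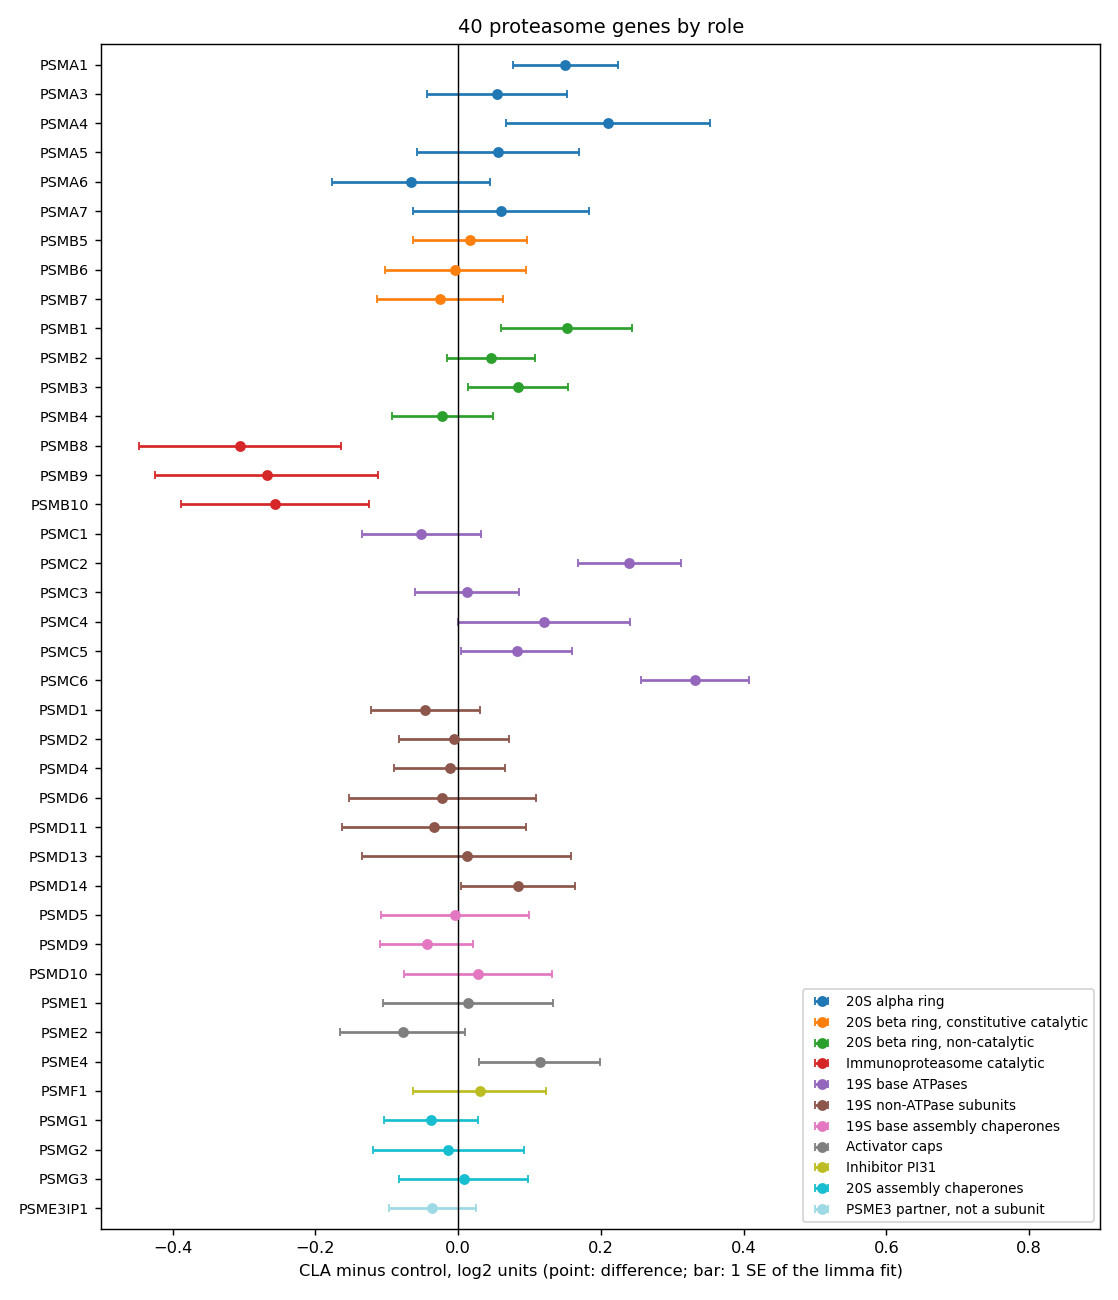
Difference of each of the 40 genes (horizontal axis, CLA minus control in log2 units, point with a bar of 1 SE of the limma fit), ordered and coloured by role. PSMB8, PSMB9 and PSMB10 lie furthest to the left, between -0.31 and -0.26, and PSMC6 and PSMC2 furthest to the right, at 0.33 and 0.24. Each gene is shown at its probe set of highest mean, and the second PSMC2 probe set differed by -0.064.

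All 3 catalytic subunits of the immunoproteasome had a lower mean in the CLA pools, by 0.26 to 0.31 on the log2 scale, and these were the lowest differences among the 40 genes. None passed the test. Their median difference was -0.27, against -0.004 for the 3 constitutive catalytic subunits and -0.010 over all genes.

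PSMB8, the interferon-inducible chymotrypsin-like subunit, stood at 7.56, 7.86, 7.14, 7.31 and 7.27 in control pools 1 to 5. In CLA pools 1 to 5 it stood at 6.98, 7.46, 6.99, 7.23 and 6.95. Control pools 1 and 2 were above every CLA pool, CLA pools 1, 3 and 5 were below every control pool, and the remaining pools overlapped. The means were 7.43 ± 0.29 and 7.12 ± 0.22 (SD, n = 5 each), a difference of -0.31 ± 0.14 SE or 1.24-fold lower (95% interval -0.61 to 0.0018, limma adjusted p = 0.562).

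PSMB9, which takes the place of PSMB6, read 9.12, 9.31, 8.56, 8.71 and 8.53 in the control pools. It read 8.43, 8.79, 8.52, 8.79 and 8.36 in the CLA pools. Again only control pools 1 and 2 were above all CLA pools, and control pools 3, 4 and 5 lay within the CLA range. The difference was -0.27 ± 0.16 SE (95% interval -0.61 to 0.072, limma adjusted p = 0.649).

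PSMB10, the inducible trypsin-like subunit, was at 8.47, 8.48, 8.04, 8.12 and 7.86 in the control pools. The CLA pools were at 7.81, 8.19, 7.90, 8.06 and 7.73. The same control pools 1 and 2 were highest, CLA pools 1 and 5 lay below every control pool, and the remaining pools overlapped. The difference was -0.26 ± 0.13 SE, 1.19-fold lower (95% interval -0.54 to 0.031, limma adjusted p = 0.599).

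The size of these differences rested much on control pools 1 and 2, the highest for all 3 genes. Without control pool 2 the difference was -0.198 for PSMB8, -0.152 for PSMB9 and -0.185 for PSMB10. Without control pool 1 it was -0.273, -0.200 and -0.187. No fit left out both pools. The mean of the 3 genes, less that of the control pools, was -0.24, -0.11 and -0.27 in control pools 3, 4 and 5. It averaged -0.28 over the CLA pools. All 3 also varied much between pools of the same group: their within-group SD was 0.25, 0.29 and 0.23, which ranked 4, 1 and 5 among the 40 genes, whose median was 0.14.

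The constitutive counterparts differed little. PSMB5, the chymotrypsin-like subunit of the standard core, had values of 10.26, 10.53, 10.33, 10.39 and 10.30 in the control pools. Its CLA values were 10.46, 10.48, 10.39, 10.39 and 10.17, and 4 of the CLA pools lay inside the control range. The difference was 0.016 ± 0.080 SE (95% interval -0.16 to 0.19).

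PSMB6, the caspase-like subunit, was measured at 9.82, 9.99, 9.97, 10.08 and 9.84 in the control pools. The CLA pools gave 9.97, 10.21, 9.89, 9.96 and 9.65, so that they held both the highest and the lowest of the 10 values. The difference was -0.0040 ± 0.099 SE (95% interval -0.22 to 0.21).

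PSMB7, the trypsin-like subunit, reached 10.68, 10.64, 10.71, 10.99 and 10.52 in the control pools. In the CLA pools it reached 10.72, 10.78, 10.69, 10.66 and 10.56, all inside the range of the controls, which control pool 4 widened upwards. The difference was -0.026 ± 0.088 SE (95% interval -0.22 to 0.17). The signs of PSMB5, PSMB6 and PSMB7 were not stable: PSMB5 was -0.026 with quantile and -0.019 with cyclic loess normalization, and with array medians subtracted PSMB6 and PSMB7 were 0.027 and 0.0050.

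**Figure D2:**
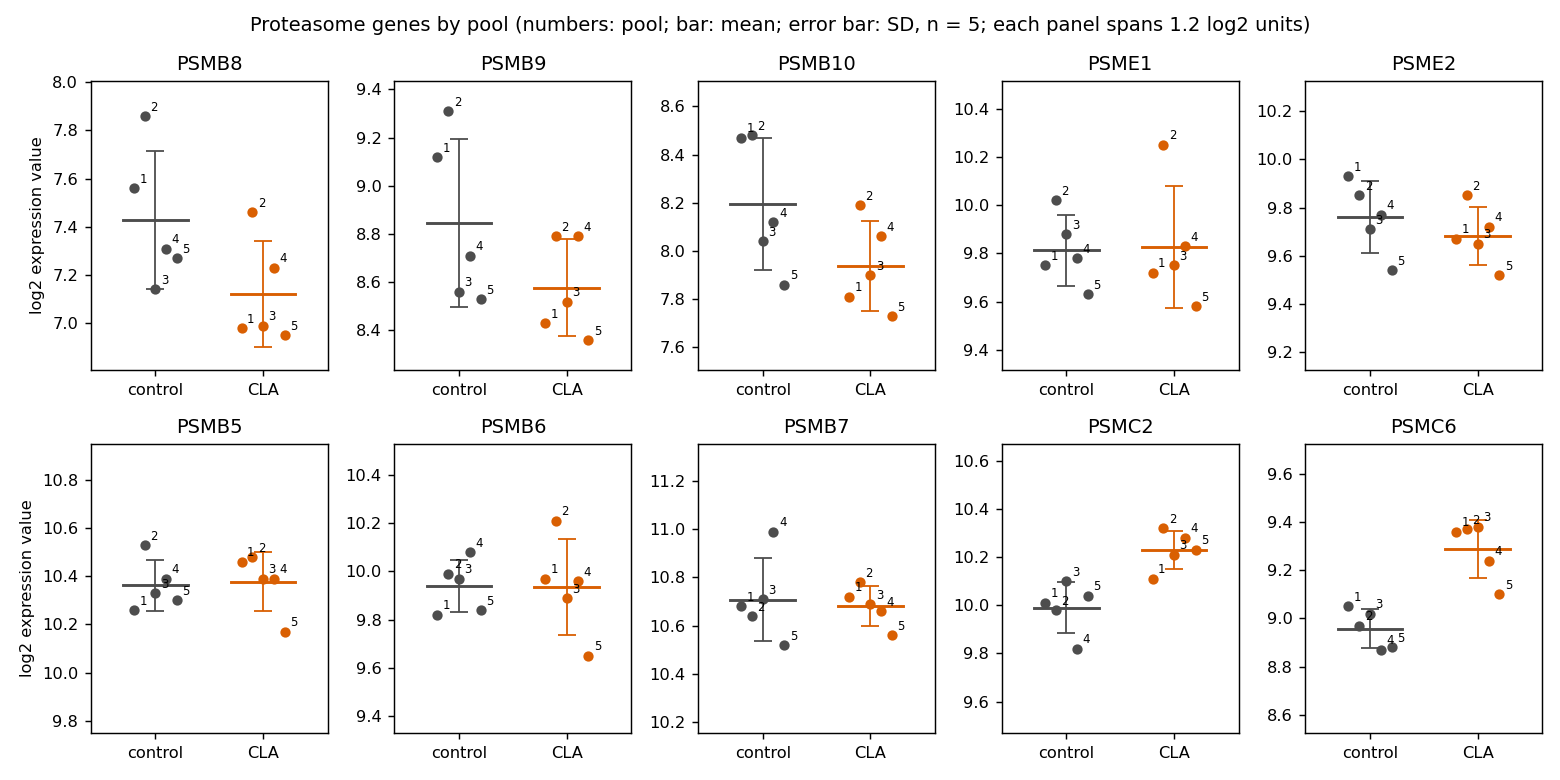
Log2 expression values (vertical axis, 1.2 log2 units in every panel) of 10 proteasome genes in each control and CLA pool; numbers mark the pool, horizontal lines the mean and error bars the SD (n = 5). PSMB8, PSMB9 and PSMB10 are highest in control pools 1 and 2, and PSMB5, PSMB6 and PSMB7 overlap between the groups. PSMC2 and PSMC6, shown at their brighter probe sets, lie above the control pools in all 5 CLA pools. At their second probe sets the groups overlap.

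Each inducible subunit was next set against the constitutive subunit that it replaces, as the log2 difference within an array. This difference does not move when a whole array is shifted, and its absolute size has no meaning because the probe sets differ. PSMB8 minus PSMB5 was -2.70, -2.67, -3.19, -3.08 and -3.03 in the control pools. It was -3.48, -3.02, -3.40, -3.16 and -3.22 in the CLA pools, with all 5 below the control mean of -2.93. The groups differed by -0.32 ± 0.13 SE (two-sided exact permutation p = 0.0635, and 0.190 after Benjamini-Hochberg adjustment over the 3 pairs).

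PSMB9 minus PSMB6 was -0.70, -0.68, -1.41, -1.37 and -1.31 in the control pools. The CLA pools lay at -1.54, -1.42, -1.37, -1.17 and -1.29. Control pools 1 and 2 stood above every CLA pool, while control pools 3, 4 and 5 lay among them. The groups differed by -0.26 ± 0.18 SE (exact permutation p = 0.246, adjusted 0.246).

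PSMB10 minus PSMB7 was -2.21, -2.16, -2.67, -2.87 and -2.66 in the control pools. In the CLA pools it was -2.91, -2.59, -2.79, -2.60 and -2.83. The pattern was the same, with control pools 1 and 2 apart from the other 8 pools. The groups differed by -0.23 ± 0.15 SE (exact permutation p = 0.214, adjusted 0.246). None of the 3 within-array differences passed 0.05 in this test, where the smallest p that 5 against 5 pools allow is 0.0079. Without control pool 2 they were -0.256, -0.161 and -0.142, and without control pool 1 -0.264, -0.166 and -0.154. No alternative left out both pools.

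**Figure D3:**
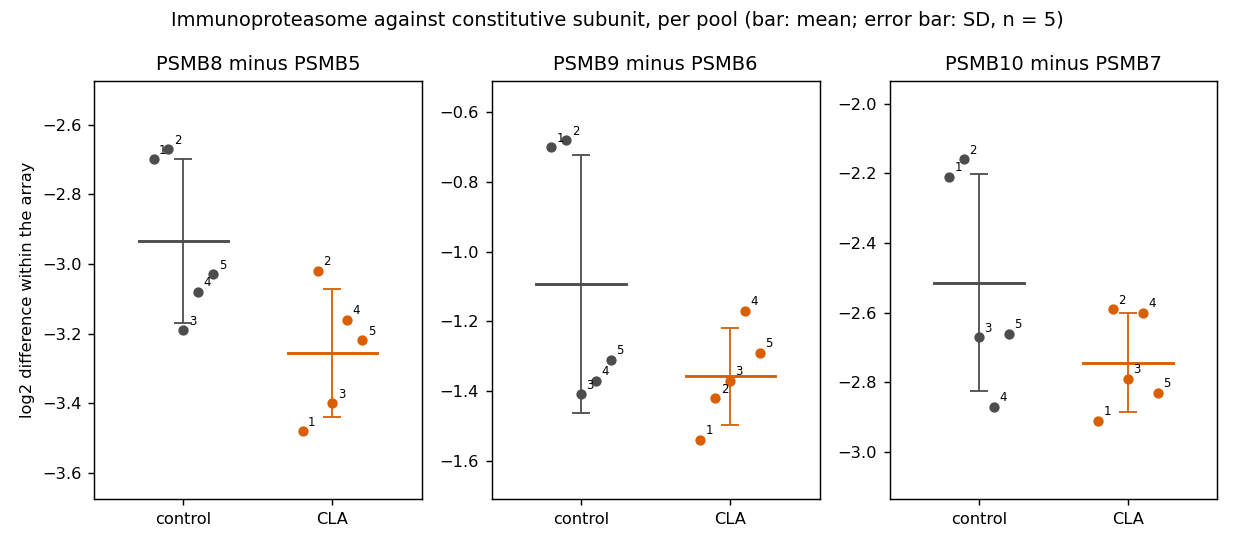
Log2 difference within each array between an immunoproteasome subunit and the constitutive subunit it replaces (vertical axis), by pool; lines give means and error bars the SD (n = 5 pools per group). In each panel control pools 1 and 2 lie above all CLA pools and control pools 3, 4 and 5 overlap with them.

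The activator genes lay closer to 0 than the inducible catalytic subunits. PSME1 and PSME2 encode the alpha and beta subunits of PA28, an interferon-inducible ring that opens the core without ATP. PSME1 was at 9.75, 10.02, 9.88, 9.78 and 9.63 in the control pools and at 9.72, 10.25, 9.75, 9.83 and 9.58 in the CLA pools. CLA pool 2 was the highest of the 10 and CLA pool 5 the lowest, and the difference was 0.014 ± 0.12 SE (95% interval -0.25 to 0.27), but -0.025 with quantile normalization, -0.019 with cyclic loess and -0.047 with array weights.

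PSME2 was at 9.93, 9.85, 9.71, 9.77 and 9.54 in the control pools and at 9.67, 9.85, 9.65, 9.72 and 9.52 in the CLA pools. Only control pool 1 was above all CLA pools, and only CLA pool 5 below all control pools. The difference was -0.078 ± 0.088 SE (95% interval -0.27 to 0.11). PSME4, which encodes the large single-chain activator PA200, differed by 0.11 ± 0.084 SE (0.066 without CLA pool 2 and 0.076 without control pool 5). Whether PSME1 or PSME2 differs from PSMB8, PSMB9 or PSMB10 in its response was not tested.

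Across the 10 pools, with the group means removed, PSMB8, PSMB9 and PSMB10 varied together. Pearson's r was 0.960 for PSMB9 with PSMB10 and Spearman's rho 0.985 (permutation p adjusted over 10 pairs 0.00020 and 0.00010). For PSMB8 with PSMB9 r was 0.937 and rho 0.930 (adjusted permutation p = 0.00067 and 0.0010), and for PSMB8 with PSMB10 they were 0.887 and 0.927 (0.0013 and 0.0010). Leaving out the 2 pools most distant from the median of the gene named first gave r of 0.952, 0.948 and 0.846, so the relation did not rest on them. The 10 pairs are all those among PSMB8, PSMB9, PSMB10, PSME1 and PSME2, and the values share the array and its normalization. The permutations shuffled values over all 10 pools after removal of the group means, which can make p somewhat too small. They test against an r of 0, while the median r over all 780 pairs of members was 0.38.

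PSME2 followed the same pools: r was 0.938 with PSMB10 and 0.823 with PSMB9 (adjusted permutation p = 0.00025 and 0.0061; rho 0.927 and 0.906, adjusted 0.0010 and 0.0014). With PSMB8 r was 0.743 and rho 0.891 (adjusted permutation p = 0.022 and 0.0021), and without CLA pool 2 this r was 0.654 (adjusted permutation p = 0.072). The relations of PSME1 moved with the pools included. Its r was 0.725 with PSMB8 and rho 0.612 (adjusted permutation p = 0.022 and 0.075), but leaving out the 2 pools most distant from the median of PSMB8 gave 0.117, so it rested on those pools. With PSMB9 r was 0.605 and rho 0.571 (adjusted permutation p = 0.058 and 0.090), with PSMB10 0.696 and 0.673 (0.022 and 0.055), and with PSME2 0.715 and 0.648 (0.022 and 0.061). Leaving out CLA pool 2 took r to 0.600 for PSMB8, 0.662 for PSMB10 and 0.617 for PSME2, each with an adjusted permutation p above 0.05 (0.088, 0.072 and 0.084). Without CLA pool 5 the values for PSMB10 and PSME2 were 0.643 and 0.633 (0.075 and 0.079), and without control pool 2 that for PSMB10 was 0.628 (0.071). For PSMB9 with PSME1 r was 0.707 without control pool 1 and 0.721 without control pool 3 (adjusted permutation p = 0.032 and 0.021). Other omissions raised r: leaving out the 2 pools most distant from the median of PSMB10 gave 0.818 for PSMB10 with PSME1. Without control pool 1 it was 0.855 for PSMB10 and 0.899 for PSME2, and without control pool 3 it was 0.882 for PSMB8.

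As a description without a test, the median r over the 3 pairs of inducible catalytic subunits was 0.94. It was 0.69 over the 3 pairs of constitutive catalytic subunits and 0.43 over the 9 pairs between the inducible and the constitutive catalytic ones. Other members of the standard particle ranged widely. For PSMB8, PSMB9 and PSMB10 in turn, r was 0.80, 0.79 and 0.80 with PSMA3 and 0.81, 0.76 and 0.81 with PSMG2. With PSMC1 it was -0.56, -0.33 and -0.30. Over all 780 pairs among the 40 genes the median was 0.38, with a range from -0.81 to 0.96. Some pairs without an inducible subunit were as high as those among the inducible ones, such as PSMB1 with PSMB6 (0.959) and PSMA3 with PSMG2 (0.953). The 6 genes of the alpha ring had a median of 0.67 over 15 pairs, and the 6 ATPases 0.040 over 15 pairs, from -0.81 for PSMC2 with PSMC3 to 0.73 for PSMC3 with PSMC5. The r of -0.81 belongs to the brighter PSMC2 probe set and is not a property shown for the gene. The second PSMC2 probe set, of similar brightness, varied differently over the pools, and control pool 4 was both highest for PSMC3 and lowest for PSMC2 at the brighter probe set.

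**Figure D4:**
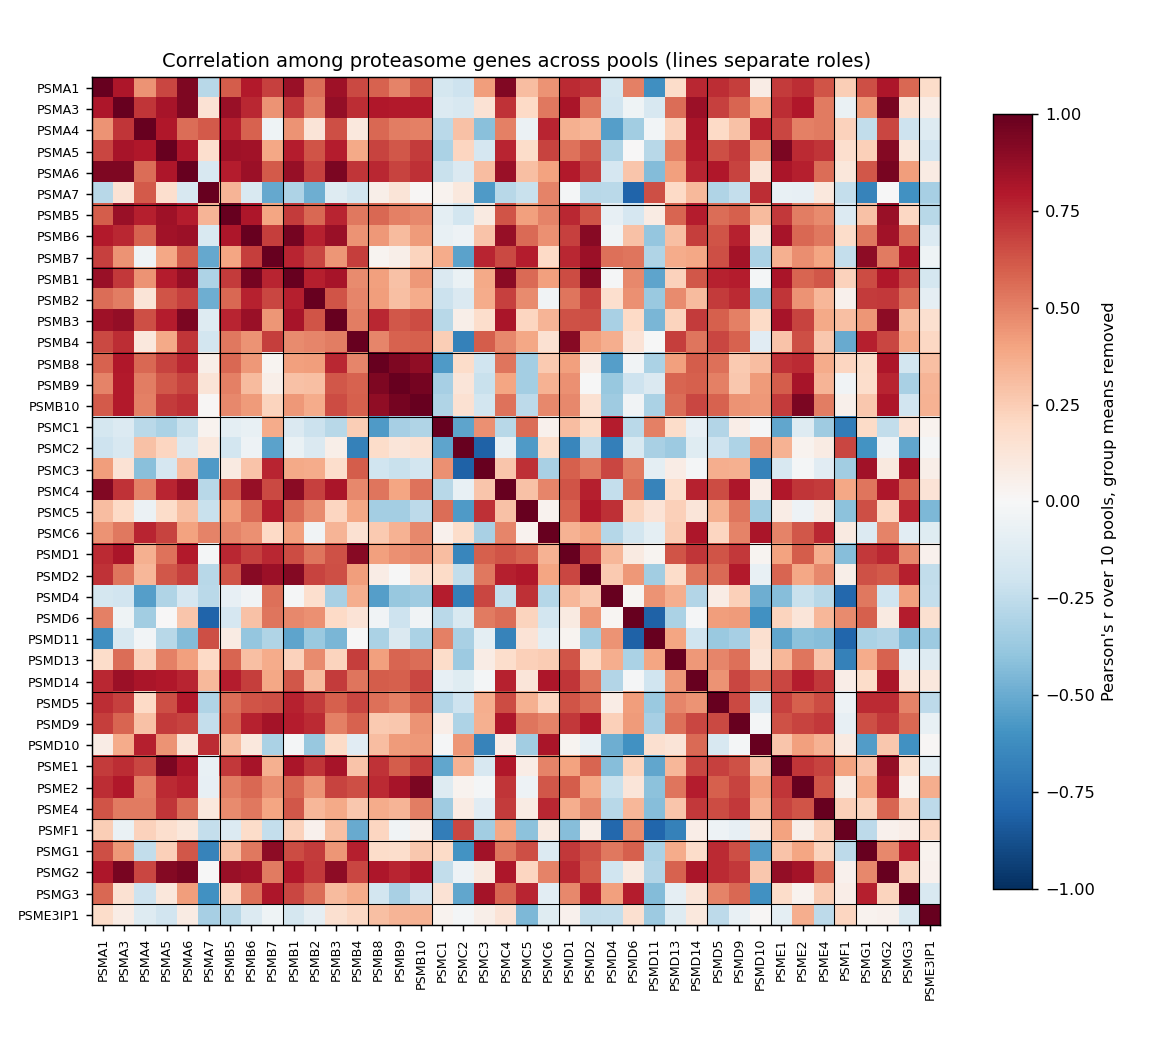
Pearson's r over the 10 pools, with group means removed, for every pair of the 40 genes (colour scale from -1 to 1; lines separate the roles). PSMB8, PSMB9 and PSMB10 have r of 0.89 to 0.96 with each other, a height also reached by other pairs such as PSMB1 with PSMB6 (0.96). PSMC2, read at its brighter probe set, has r of -0.81 with PSMC3.

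Among the 6 ATPases of the 19S base, the ring that unfolds substrates, 5 were higher and 1 lower in the CLA pools. Their median was 0.10. These values are for the probe set of highest mean, and PSMC2, 1 of the 5, was lower (-0.064) at its second probe set. PSMC6 had the largest difference of the 40 genes. It was at 9.05, 8.97, 9.02, 8.87 and 8.88 in the control pools and at 9.36, 9.37, 9.38, 9.24 and 9.10 in the CLA pools. The groups did not overlap, although CLA pool 5 lay close to control pool 1. The difference was 0.33 ± 0.076 SE, 1.26-fold (95% interval 0.17 to 0.50, limma adjusted p = 0.299). The second PSMC6 probe set differed by 0.15 ± 0.075 SE, and its groups overlapped.

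PSMC2 was at 10.01, 9.98, 10.10, 9.82 and 10.04 in the control pools and at 10.11, 10.32, 10.21, 10.28 and 10.23 in the CLA pools. The groups did not overlap, but control pool 3 and CLA pool 1 nearly met. The difference was 0.24 ± 0.072 SE, 1.18-fold (95% interval 0.083 to 0.40, limma adjusted p = 0.413). The second PSMC2 probe set, of similar brightness, gave -0.064 ± 0.074 SE, so the probe sets of this gene disagreed in sign. With the mean of both probe sets the difference was 0.088.

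The remaining ATPases lay closer to 0. PSMC4 differed by 0.12 ± 0.12 SE, PSMC5 by 0.082 ± 0.078 SE, PSMC3 by 0.012 ± 0.073 SE and PSMC1 by -0.052 ± 0.083 SE, all with overlapping groups. The median of the 6 was 0.049 without CLA pool 2, 0.057 with quantile normalization and 0.13 with array medians subtracted.

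In the alpha ring of the core, which gates entry, 5 of 6 genes were higher and 1 lower (median 0.058). PSMA4 had the largest difference (0.21 ± 0.14 SE; 0.14 without control pool 4 or without CLA pool 2, 0.34 without CLA pool 5, and 0.065 without both control pool 4 and CLA pool 2) and PSMA6 the lowest (-0.066 ± 0.11 SE). PSMA1 was above the control mean in all 5 CLA pools and differed by 0.15 ± 0.073 SE, and control pool values overlapped with them. The median of the ring was 0.13 without CLA pool 5 and 0.12 without control pool 2, and 0.022 after cyclic loess and 0.029 after quantile normalization.

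Of the 4 beta subunits without a protease site, 3 were higher and 1 lower (median 0.065). PSMB1 was highest at 0.15 ± 0.091 SE (0.085 without CLA pool 2), PSMB3 differed by 0.084 ± 0.070 SE and PSMB2 by 0.046 ± 0.062 SE. PSMB4 was lowest at -0.022 ± 0.071 SE, and 0.0090 with array medians subtracted.

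The non-ATPase subunits of the 19S cap gave small differences in both directions: 2 of 7 were higher and 5 lower (median -0.012). They ranged from PSMD1, the large scaffold subunit (-0.046 ± 0.077 SE), to PSMD14, the deubiquitinase that cuts ubiquitin chains off substrates (0.084 ± 0.080 SE). PSMD4, a ubiquitin receptor, differed by -0.012 ± 0.077 SE at its brighter probe set and by -0.12 at the other. The second probe sets of PSMD6 and PSMB2 also differed in sign from the brighter ones (0.052 against -0.022, and -0.042 against 0.046).

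The chaperones that build the particle showed small differences as well. Those of the 19S base ranged from PSMD9 (-0.044 ± 0.065 SE) to PSMD10, also known as gankyrin (0.028 ± 0.10 SE). Those of the core ranged from PSMG1 (-0.038 ± 0.066 SE) to PSMG3 (0.0080 ± 0.091 SE), the latter slightly negative (-0.0032) after quantile normalization. PSMF1, the inhibitor PI31, differed by 0.030 ± 0.093 SE, and PSME3IP1 by -0.036 ± 0.061 SE.

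Other genes of the ubiquitin-proteasome route were read from a separate list. Of 19 measured partners and regulators 11 were higher and 8 lower (median 0.026), with 0 at an unadjusted limma p under 0.05 in either direction (background 8.50%). The smallest p was that of NFE2L2 (0.16 ± 0.080 SE), a transcription factor of the oxidative stress response that can raise proteasome genes, and its second probe set differed by 0.010. NFE2L1, the factor that restores proteasome synthesis when the protease is inhibited, differed by -0.014 ± 0.070 SE. POMP, the chaperone that matures the core, differed by 0.048 ± 0.083 SE. The latter 2 genes were picked for their role after the values had been seen.

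Among 10 measured genes of MHC class I peptide loading, 8 were lower and 2 higher (median -0.068), and 1 had an unadjusted limma p under 0.05 in the lower direction, for which the background is 4.15% of genes. This was ERAP1, the aminopeptidase that trims peptides in the endoplasmic reticulum (-0.39 ± 0.14 SE, adjusted p = 0.449). In the RefSeq gene order TAP1, a chain of the peptide transporter, lies between PSMB8 and PSMB9 on chromosome 23, and TAP2 is separated from PSMB8 by 1 coding gene. TAP1 stood at 8.13, 8.26, 7.38, 7.53 and 7.30 in the control pools and at 7.22, 7.88, 7.27, 7.74 and 7.30 in the CLA pools, so that control pools 1 and 2 were again above every CLA pool. TAP1 differed by -0.24 ± 0.20 SE and TAP2 by -0.060 ± 0.14 SE, both with overlapping groups, and both were picked for their position.

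In the list of interferon gamma signalling 9 of 12 measured genes were lower and 3 higher (median -0.055), with 0 at an unadjusted limma p under 0.05. IFNG itself had the smallest p (-0.23 ± 0.12 SE), from a control mean of 3.50 near the dim end of the array. The mean of the list over its genes, less the mean of the control pools, was 0.23 and 0.35 in control pools 1 and 2, -0.25 to -0.15 in control pools 3, 4 and 5, and -0.27 to 0.13 in the CLA pools. The mean of PSMB8, PSMB9 and PSMB10 on that scale was 0.23 and 0.39 in control pools 1 and 2, -0.27 to -0.11 in the other control pools, and -0.48 to -0.0090 in the CLA pools. The same 2 control pools were therefore highest for both.

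General leukocyte markers had their highest values in the same control pools. Of 7 general leukocyte markers 6 were lower and 1 higher in the CLA pools (median -0.16). Their mean stood at 0.24 and 0.33 in control pools 1 and 2, at -0.35 to -0.076 in the other control pools and at -0.31 to 0.081 in the CLA pools. LAPTM5, a lysosomal protein of blood cells, had the smallest p (-0.21 ± 0.11 SE). The mean level of the list was 8.10 to 8.78 in the control pools and 8.14 to 8.53 in the CLA pools. The part of leukocyte number in the immunoproteasome values was not tested.

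Markers of single cell types completed this comparison. For T and NK lymphocytes 16 of 18 markers were lower, 2 of them at an unadjusted limma p under 0.05 (background 4.15% of genes lower at that level and 53.2% below 0), with a mean level of 5.84 to 6.20 in the control pools and 5.75 to 5.98 in the CLA pools, and with the T cell kinase ZAP70 at -0.44 ± 0.11 SE. Of 9 markers of Kupffer cells and macrophages 8 were lower and 1 was equal, with a mean level of 9.28 to 9.76 and 9.29 to 9.64, and TIMD4 at -0.35 ± 0.17 SE. Of 5 B lymphocyte markers 4 were lower (5.90 to 6.20 and 5.71 to 6.16), with 1 at an unadjusted limma p under 0.05 (background 4.15%), BLK at -0.37 ± 0.15 SE. By pool, the T and NK list was highest in control pools 1 and 2 (0.16 and 0.12 on the scale above). The other immune lists did not follow both pools: the Kupffer cell list was at 0.23 and 0.062 there but at 0.10 in control pool 4 and 0.11 in CLA pool 4, and the B lymphocyte list at 0.034 and 0.16 but at 0.11 in CLA pool 4. Hepatocyte markers were higher in 11 of 12 (11.97 to 12.51 and 12.24 to 12.63), by a median of 0.049, with FGB at 0.21 ± 0.14 SE. Of these hepatocyte markers 0 had an unadjusted limma p under 0.05 (background 8.50%). Endothelial markers were higher in 4 of 9 (7.09 to 7.39 and 7.04 to 7.31). Among the endothelial markers 1 was higher at an unadjusted limma p under 0.05 (background 4.35%), EMCN at 0.25 ± 0.088 SE and -0.010 at its second probe set.

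**Figure D5:**
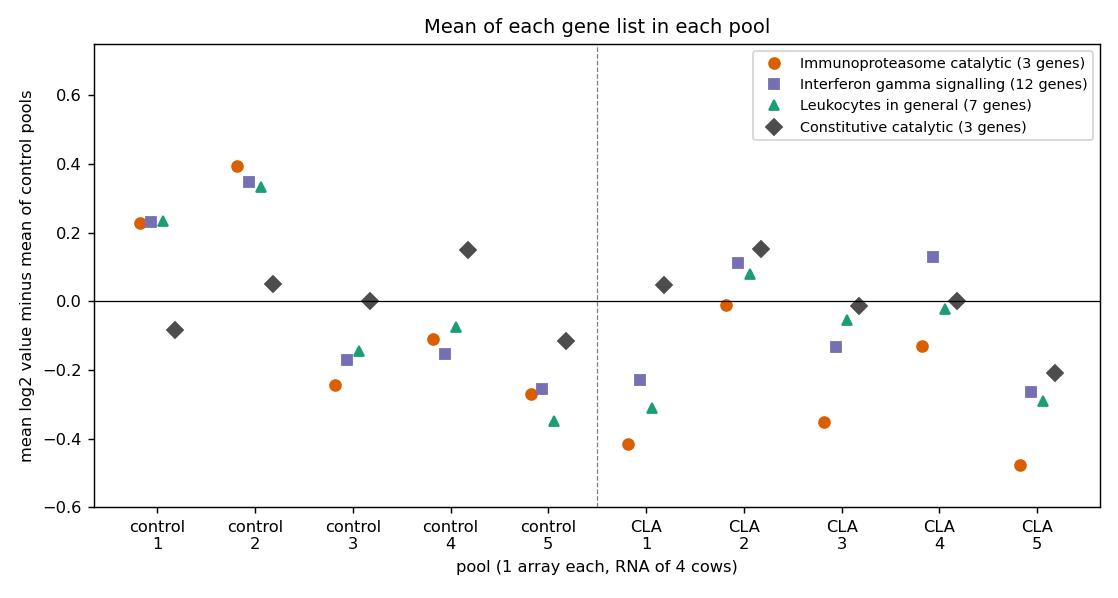
Mean log2 value of 4 gene lists in each pool, minus the mean of the control pools (vertical axis), with the 5 control pools left and the 5 CLA pools right of the dashed line. The immunoproteasome, interferon gamma and leukocyte lists are highest in control pools 1 and 2 (0.23 to 0.39), where the constitutive catalytic subunits stand at -0.083 and 0.050.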

How the data were processed

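Per the submitters' processing notes, the authors processed the arrays with Affymetrix Expression Console 1.1 and RMA, which corrects background, equalizes the arrays and summarizes probes. The sources used here do not give the order and settings of these steps. The deposited table holds log2 expression values with 2 decimals, used as deposited. Of 24128 probe sets, 112 manufacturer controls were left out and 24016 tested. Of these 13292 had 1 gene symbol, 86 several and 10638 none, and the identifiers and symbols of all 40 proteasome genes matched RefSeq's gene table (ARS-UCD2.0), used for names and gene order only.

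In R 4.3.3, limma 3.58.1 (lmFit, eBayes) compared the groups over the 10 arrays with no covariate, and p-values were adjusted by Benjamini-Hochberg over 24016 probe sets. The fit was tested on simulated data. Within-array differences were compared by exact permutation over 252 groupings, and relations by 100000 permutations. No detection calls were used, and the number of arrays limits precision. Members, lists and tests were chosen with earlier results of these data known. Values by pool are given for the catalytic subunits, PSME1, PSME2 and genes with an unadjusted p under 0.05 or groups without overlap; for each role the extremes are named, and for other lists the gene of smallest p. Alternatives were each pool left out, the pool number as a block, 3 normalizations, the dimmest 30% of probe sets removed, array weights, trend and robust eBayes, other or averaged probe sets, an adjusted p under 0.10 and the fit without the 2 least correlated arrays; leaving out PSME3IP1 was chosen after seeing the data.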

Additional observations from a re-analysis of the deposited data

Results flagged for a closer look

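In 7 of 86 sets of 5 pools (40 genes and 3 within-array differences in each feeding group), 1 pool lay far from the other 4 by Dixon's test. Chance alone would give about 1 in 20 for independent sets. These sets share the same 10 arrays and are correlated, so whether 7 is more than chance was not tested. Control pool 4 and CLA pool 2, which recur below, were also the 2 least correlated arrays. In the control pools, pool 4 was highest for the ATPase PSMC3 (10.52, next 10.26) and for the assembly chaperone PSMG3 (8.15, next 7.82). In the CLA pools, pool 5 was lowest for the beta subunit PSMB4 (11.09, next 11.17) and for PSMD10 (6.07, next 6.37). CLA pool 2 was lowest for the ubiquitin receptor PSMD4 (9.86, next 10.04) and highest for PSMG1 (8.49, next 8.44). CLA pool 3 was lowest for PSME3IP1 (7.49, next 7.59). Control pools 1 and 2, highest for PSMB8, PSMB9 and PSMB10, are not singled out by this test, which looks for 1 distant pool.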

How the results depend on the processing

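No proteasome gene passed limma's adjusted test in any of 19 fits. On the whole array 1 probe set passed without the 2 least correlated arrays and 0 in the other fits, and 1499 to 2297 had an unadjusted p under 0.05. PSMB8, PSMB9 and PSMB10 stayed lower in every fit, with medians of the 3 from -0.35 to -0.18 with 1 pool left out and -0.355 to -0.237 otherwise. No fit left out both control pools 1 and 2, the highest for these genes, so the fits do not show the differences without both. The adjusted exact permutation p of the 3 within-array differences stayed above 0.05 in every alternative, at 0.095 to 0.50. The lowest, 0.095, was that of PSMB8 minus PSMB5 without control pool 3 or without CLA pool 2. There its exact permutation p before adjustment was below 0.05. The median of the 40 genes turned to -0.024 after quantile and -0.020 after cyclic loess normalization, and ranged from -0.025 to 0.042 with 1 pool left out, where 3 of the 10 medians were negative. Without PSME3IP1 it kept its sign. The number of proteasome genes with an unadjusted p under 0.05 was 4 in place of 2 after quantile and cyclic loess normalization, with array weights, without the 2 least correlated arrays and without CLA pool 2, where PSMB8 and PSMB10 were added. It was 5 without control pool 5 (PSMB8, PSMB9 and PSMB10 added) or CLA pool 5 (PSMA1, PSMA4 and PSMB1 added). Of all 24016 probe sets, 2135 (8.89%) reached that level in the main fit. The number was 1917 after quantile normalization, 1975 after cyclic loess, 2104 without CLA pool 2 and 1951 without control pool 5. Without CLA pool 5, 960 were higher and 1164 lower. The counts of 4 and 5 are therefore not read as a result about these genes. Same-numbered pools of the groups did not deviate together (correlations -0.086 to 0.092), so the numbers were not treated as pairs. With the pool number as a replicate block the count was 4, the medians stayed at 0.010 and -0.27, and adjusted sign-flip p of the within-array differences were 0.19 to 0.50, where 5 pairs cannot reach 0.05.

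Differences near 0 changed sign. After quantile normalization PSMB5 was -0.026, PSME1 -0.025 and PSMG3 -0.0032. After cyclic loess they were -0.019, -0.019 and -0.0027. After subtraction of array medians PSMB6 was 0.027, PSMB7 0.0050 and PSMB4 0.0090. Without the 2 least correlated arrays PSMB5 was -0.0025, PSMB7 0.020, PSME1 -0.10, PSMB4 0.010, PSMC1 0.033 and PSMD10 -0.055. With array weights PSME1 was -0.047 and PSMG3 -0.0032. The other PSMC2 probe set was at -0.064. With 1 pool left out, PSMB5 ranged from -0.0095 to 0.068, PSMB6 from -0.073 to 0.068, PSMB7 from -0.073 to 0.045, PSME1 from -0.092 to 0.076, PSMA6 from -0.14 to 0.0035, PSMB4 from -0.055 to 0.013, PSMD10 from -0.050 to 0.098, PSMG1 from -0.061 to 0.0040 and PSMG3 from -0.028 to 0.083. The cause of these changes was not tested.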
